A study of Mus musculus with 9 samples.

Results

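The genes described here are those of the hepatic acute phase and interleukin-6 (IL-6) response in mouse liver, chosen as every probe whose symbol in the array annotation is on a list of 37 genes. Of these 37 genes, 36 had a probe and 34 were tested, out of 10408 genes tested in all. No probe was annotated to Serpina3k, and the probes of Orm3 and Steap4 were not detected on any of the 9 arrays. The list held 66 probes, of which 54 were tested. By role, 19 of 20 listed secreted acute phase proteins were tested, with 4 of 5 other secreted plasma proteins, 6 of 7 receptors and membrane proteins, and 5 of 5 signalling genes.

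Liver RNA came from male C57BL/6 mice 8 weeks old, in 3 groups of 3 Illumina bead arrays each. The first group was treated with triiodothyronine (T3, the active thyroid hormone) for 3 days and given FoxO1 siRNA by hydrodynamic tail vein injection, the second was treated with T3 for 3 days, and the third was euthyroid. The series asks which T3 target genes depend on FoxO1, a transcription factor of the insulin and fasting response. No group injected without the FoxO1 siRNA is named in the labels, so the siRNA and the injection procedure cannot be told apart. The labels give no dose of T3. They do not say whether every array had its own mouse, and the spread between arrays that the p-values rest on may therefore be technical. RNA was from whole tissue, in which fewer cells of a type and less RNA per cell cannot be told apart.

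The acute phase response is the change in plasma proteins that the liver makes during infection or injury. IL-6 binds its receptor (Il6ra) together with the shared subunit gp130 (Il6st), which leads to phosphorylation of the transcription factor STAT3, and Socs3 is a feedback inhibitor of this pathway. IL-1 acts through NF-kB, and the transcription factors C/EBP beta and C/EBP delta (Cebpb and Cebpd) act with STAT3 and NF-kB on acute phase promoters. Serum amyloid A1 and A2 are among the plasma proteins that rise most in the mouse, while fetuin A (Ahsg) and albumin are known to decline.

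Promoters of the 4 serum amyloid A genes, Lcn2 and Orm2 are shown first, because 5 of these 6 rose together and Saa4 went the other way. They were chosen with their values known, among the 30 listed genes that had an entry in the RefSeq table (GRCm38.p6, 35 promoters), and others such as Il6ra and Lrg1 changed more than Saa4. Each sequence below is the 250 bases upstream of the annotated transcript start, 5′ to 3′ on the gene's own strand, with every match to the C/EBP motif TTGCNNAA, read on both strands, in capitals. Matches to the STAT motif TTCNNNGAA or the NF-kB motif (GGG, any 2 bases, then TTTCC) would also be in capitals, but none occurred in these 6 windows. Saa1, Saa2, Saa3, Lcn2 and Orm2 were higher with T3 plus FoxO1 siRNA, and Saa4, a neighbour of the other Saa genes on chromosome 7, was lower. The windows lie at chr7:46742981-46743230 (minus strand) for Saa1, chr7:46751583-46751832 (plus strand) for Saa2, chr7:46715677-46715926 (minus strand) for Saa3, chr7:46732604-46732853 (minus strand) for Saa4, chr2:32387740-32387989 (minus strand) for Lcn2 and chr4:63362199-63362448 (plus strand) for Orm2.
Saa1: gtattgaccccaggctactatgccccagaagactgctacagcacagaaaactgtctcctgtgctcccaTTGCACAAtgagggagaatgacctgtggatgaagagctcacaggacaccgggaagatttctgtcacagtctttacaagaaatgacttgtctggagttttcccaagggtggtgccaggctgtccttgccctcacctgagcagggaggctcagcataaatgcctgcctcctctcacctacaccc
Saa2: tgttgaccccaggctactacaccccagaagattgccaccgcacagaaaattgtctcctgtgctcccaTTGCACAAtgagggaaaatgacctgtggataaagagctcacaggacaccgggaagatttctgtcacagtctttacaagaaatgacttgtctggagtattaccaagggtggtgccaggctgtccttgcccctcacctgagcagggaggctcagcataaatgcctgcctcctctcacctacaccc
Saa3: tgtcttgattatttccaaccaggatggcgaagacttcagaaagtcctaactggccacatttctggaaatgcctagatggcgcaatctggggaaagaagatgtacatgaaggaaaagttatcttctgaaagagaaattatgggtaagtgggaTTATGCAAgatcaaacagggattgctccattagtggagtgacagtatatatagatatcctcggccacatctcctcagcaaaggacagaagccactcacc
Saa4: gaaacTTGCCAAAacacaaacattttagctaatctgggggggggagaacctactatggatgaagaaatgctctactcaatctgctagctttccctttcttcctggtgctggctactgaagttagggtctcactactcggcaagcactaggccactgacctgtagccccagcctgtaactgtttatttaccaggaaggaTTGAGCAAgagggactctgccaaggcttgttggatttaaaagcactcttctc
Lcn2: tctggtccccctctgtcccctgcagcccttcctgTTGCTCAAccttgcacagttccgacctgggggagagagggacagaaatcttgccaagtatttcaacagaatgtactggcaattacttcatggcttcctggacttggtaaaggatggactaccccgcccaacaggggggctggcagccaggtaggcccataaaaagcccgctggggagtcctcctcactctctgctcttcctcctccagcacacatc
Orm2: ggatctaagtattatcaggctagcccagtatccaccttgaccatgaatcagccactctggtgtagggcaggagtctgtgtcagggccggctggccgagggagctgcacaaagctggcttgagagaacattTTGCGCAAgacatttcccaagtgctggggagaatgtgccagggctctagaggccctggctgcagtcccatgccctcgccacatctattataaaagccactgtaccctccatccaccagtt

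The Saa1 and Saa2 windows were near copies, with 238 identical bases in 251 aligned columns (94.8%). Saa1 shared 52.2% with Saa3 and 49.5% with Saa4. The C/EBP motif began at position -182 in Saa1, -183 in Saa2, -99 in Saa3, -216 in Lcn2 and -120 in Orm2, where it matched on both strands. Saa4 held it at -245 and at -52. Among the genes higher with T3 plus FoxO1 siRNA than with T3 alone, 6 of 9 with a promoter entry held a C/EBP match (Cp, Lcn2, Orm2, Saa1, Saa2 and Saa3), against 1 of 4 lower genes (Saa4) and 4 of 15 that did not pass the test. Of all 32851 promoter windows of this length, 9.56% held one. That share counts single windows, while a gene with several windows counted if any of them held a match, as for Cp. The shares of genes and of windows are therefore not like measures. The STAT motif was in 1 of the 9 higher genes (Apcs), 0 of the 4 lower genes and 2 of the 15 others (Itih4 and Socs3), with 7.02% of all windows. The NF-kB motif was in 0 of 9, 0 of 4 and 3 of 15 (Il1rn, Nfkbia and Serpina3n), with 1.41% of all windows. Orm3 and Steap4, which had an entry but were not tested, both held a C/EBP match, and Steap4 also held STAT and NF-kB matches. Saa1 and Saa2 counted as separate genes although their windows are near copies. A match is a string of letters in a window and not a measured binding site.

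**Figure D1:**
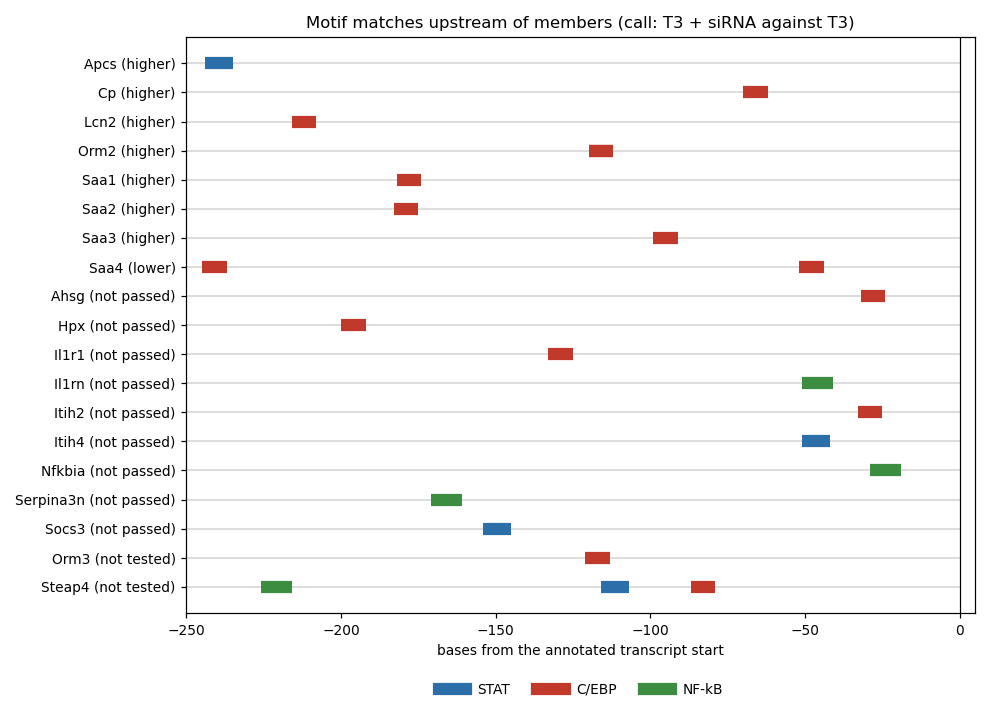
Motif matches in the 250 bases upstream of members with a promoter entry, by distance from the annotated transcript start (x axis, bases), one row per promoter with its call for T3 plus FoxO1 siRNA against T3 in brackets. Colours mark the STAT, C/EBP and NF-kB motifs, and the C/EBP motif is in 6 of the 9 higher genes.

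The arrays had median signals of 109 to 127, and 36.4% to 40.5% of 45281 probes were detected on each. Foxo1 itself had normalized log2 signals of 8.44, 8.55 and 8.44 with T3 plus FoxO1 siRNA, 9.22, 9.63 and 9.78 with T3, and 8.72, 8.87 and 8.73 in euthyroid liver. Its log2 change was -1.07 ± 0.14 (SE) with siRNA against T3 (limma adjusted p = 0.00172) and 0.77 with T3 against euthyroid (limma adjusted p = 0.0082). With siRNA against euthyroid it was -0.30 (limma adjusted p = 0.152). Dio1, a deiodinase gene that T3 induces, was 1.92 ± 0.15 (SE) log2 units higher with T3 than in euthyroid liver (limma adjusted p = 0.000613).

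With T3 plus FoxO1 siRNA against T3, 13 of the 34 tested members rose and 4 fell at a limma adjusted p under 0.05, which is 50% of them. Of all genes tested, 19.5% passed in this comparison, 11.7% higher and 7.72% lower. The members' median log2 change was 0.19, against 0.01 over all genes. Secreted acute phase proteins made up 11 of the 13 rises and 1 of the 4 falls, with a median of 0.46 over the 19 tested. None of the 4 other plasma proteins passed. At least a 2-fold rise was seen for 6 members (Saa1, Saa2, Saa3, Lcn2, Orm2 and Cd14), while 3.33% of all genes rose that much. At least a 2-fold fall was seen for 1 member (Il6ra), against 1.07% of all genes. The count of 13 depended on single arrays: leaving out siRNA replicate 2 gave 8, and leaving out T3 replicate 1 gave 8 as well. The threshold of 0.05 applies to p-values adjusted over all 10408 genes.

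**Figure D2:**
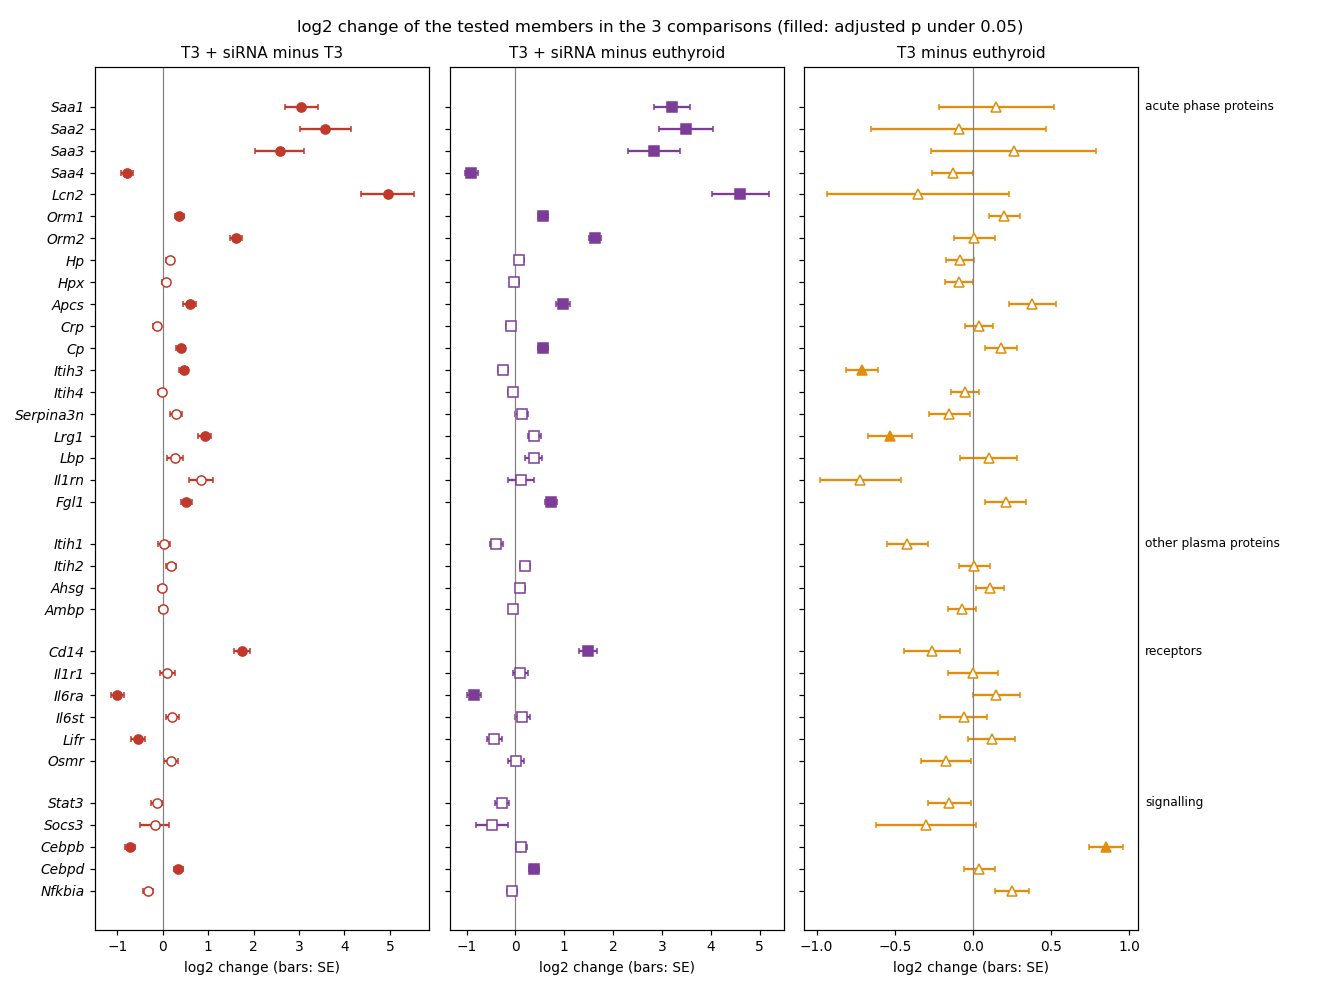
log2 change (x axis, bars are SE) of the 34 tested members in the 3 comparisons, grouped by role down the page; filled points passed a limma adjusted p of 0.05, and the third panel has its own, narrower x scale. Saa1, Saa2, Saa3 and Lcn2 lie furthest to the right in both comparisons that involve the siRNA, and 3 members are filled in the third panel.

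Lcn2, the siderophore-binding protein lipocalin 2 (chr2:32384637-32387739), changed most. Its normalized log2 signal was 11.86, 12.71 and 13.88 with T3 plus FoxO1 siRNA, 6.94, 8.38 and 8.29 with T3, and 8.91, 8.34 and 7.40 in euthyroid liver. Every siRNA array lay above all 6 others, while the T3 and euthyroid arrays overlapped. The rise was 30.9-fold against T3 (log2 change 4.95 ± 0.58 SE, limma adjusted p = 0.000893) and 24.2-fold against euthyroid (4.60 ± 0.58 SE, limma adjusted p = 0.00117). T3 against euthyroid gave -0.35 (limma adjusted p = 0.708).

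The serum amyloid A genes sit side by side on chromosome 7 and did not move alike. Saa1 (chr7:46740497-46743181), a major acute phase apolipoprotein, had log2 signals of 14.15, 15.72 and 15.49 with T3 plus FoxO1 siRNA, 11.96, 12.10 and 12.13 with T3, and 12.34, 11.48 and 11.91 in euthyroid liver. It was 8.31-fold higher with siRNA than with T3 (log2 change 3.05 ± 0.37 SE, limma adjusted p = 0.00109) and 9.23-fold higher than in euthyroid liver (3.21 ± 0.37 SE, limma adjusted p = 0.000907). A second Saa1 probe changed by 3.15 and 3.20. Saa2 (chr7:46751833-46754313), its close copy, read 8.72, 11.17 and 10.88 with T3 plus FoxO1 siRNA, 6.83, 6.53 and 6.67 with T3, and 7.43, 6.47 and 6.40 in euthyroid liver. The rises were 12-fold against T3 (3.58 ± 0.56 SE, limma adjusted p = 0.00361) and 11.2-fold against euthyroid (3.49 ± 0.56 SE, limma adjusted p = 0.00315). In both genes siRNA replicate 1 was the lowest of its group and still above all 6 other arrays. Probe sequences were not compared with the transcripts here, so signal shared between Saa1 and Saa2 was not tested.

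Saa3 (chr7:46711998-46719615), which is also made outside hepatocytes, had log2 signals of 10.25, 12.60 and 12.22 with T3 plus FoxO1 siRNA, 9.66, 8.55 and 9.15 with T3, and 8.91, 8.93 and 8.76 in euthyroid liver. The siRNA and T3 arrays did not overlap, and siRNA replicate 1 was again the lowest of its group. Saa3 was 5.95-fold higher against T3 (2.57 ± 0.53 SE, limma adjusted p = 0.0113) and 7.11-fold higher against euthyroid (2.83 ± 0.53 SE, limma adjusted p = 0.00576). Saa4 (chr7:46727992-46732603), known as the constitutive serum amyloid A, went the other way. It read 12.33, 12.51 and 12.27 with T3 plus FoxO1 siRNA, 12.88, 13.36 and 13.20 with T3, and 13.26, 13.30 and 13.26 in euthyroid liver. Saa4 was 1.71-fold lower with siRNA than with T3 (log2 change -0.78 ± 0.13 SE, limma adjusted p = 0.00517) and 1.87-fold lower than in euthyroid liver (-0.90 ± 0.13 SE, limma adjusted p = 0.00221). None of the Saa genes passed between T3 and euthyroid liver, with log2 changes of 0.15 for Saa1, -0.09 for Saa2, 0.26 for Saa3 and -0.13 for Saa4.

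Among the orosomucoids, plasma lipocalins also called alpha-1 acid glycoproteins, Orm2 (chr4:63362449-63365877) had the lowest adjusted p of the members in the comparison of siRNA with T3. Its log2 signals were 13.22, 13.63 and 13.52 with T3 plus FoxO1 siRNA, 11.80, 11.76 and 11.94 with T3, and 12, 11.70 and 11.78 in euthyroid liver. The siRNA arrays lay apart from both other groups, which overlapped. Orm2 was 3.08-fold higher than with T3 (1.62 ± 0.13 SE, limma adjusted p = 0.000227) and 3.1-fold higher than in euthyroid liver (1.63 ± 0.13 SE, limma adjusted p = 0.000412). Orm1 read 15.41, 15.55 and 15.41 with T3 plus FoxO1 siRNA, 15, 15.12 and 15.18 with T3, and 14.82, 14.92 and 14.95 in euthyroid liver. That was 1.28-fold higher than T3 (0.36 ± 0.10 SE, limma adjusted p = 0.0325) and 1.48-fold higher than euthyroid (0.56 ± 0.10 SE, limma adjusted p = 0.00416). The call against T3 was lost in 10 of 20 alternatives (limma adjusted p up to 0.099), among them median scaling and the omission of any 1 siRNA or T3 array or of euthyroid replicate 2, while the call against euthyroid passed in all 20. All siRNA arrays of Orm1 were above all others.

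Smaller rises were seen for 3 further plasma proteins in both comparisons. Apcs, serum amyloid P, a pentraxin that is a main acute phase reactant in the mouse, had log2 signals of 12.05, 12.17 and 12.06 with T3 plus FoxO1 siRNA, 11.26, 11.43 and 11.81 with T3, and 11.16, 11.28 and 10.91 in euthyroid liver. It was 1.51-fold higher against T3 (0.59 ± 0.15 SE, limma adjusted p = 0.0278) and 1.97-fold higher against euthyroid (0.97 ± 0.15 SE, limma adjusted p = 0.0029). The siRNA arrays lay above all others, but the call against T3 was lost in 7 of 20 alternatives, including the omission of any 1 siRNA array or of T3 replicate 1 or 2 (limma adjusted p up to 0.0774). Fgl1, a fibrinogen-like protein secreted by hepatocytes, read 15.14, 15.22 and 15.03 with T3 plus FoxO1 siRNA, 14.53, 14.49 and 14.80 with T3, and 14.29, 14.60 and 14.31 in euthyroid liver. Its folds were 1.44 against T3 (0.52 ± 0.13 SE, limma adjusted p = 0.0218) and 1.66 against euthyroid (0.73 ± 0.13 SE, limma adjusted p = 0.00431). For Fgl1, too, no siRNA array fell within another group. Its other 2 tested probes gave 0.79 and 0.42 against T3 and did not pass (limma adjusted p = 0.16 and 0.108). The call against T3 was lost in 6 of 20 alternatives, among them the mean of its probes (0.0669) and the omission of siRNA replicate 1 or 2 or T3 replicate 1 or 2.

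Cp, the copper-carrying ferroxidase ceruloplasmin, read 14.65, 14.55 and 14.68 with T3 plus FoxO1 siRNA, 14.15, 14.35 and 14.20 with T3, and 14.13, 14.07 and 13.96 in euthyroid liver on its brightest probe. The changes were 0.39 ± 0.10 (SE) against T3 (limma adjusted p = 0.0248) and 0.57 ± 0.10 (SE) against euthyroid (limma adjusted p = 0.0043). Its 3 dimmer probes did not bear this out. Against T3 they changed by 0.11, -0.80 and 0.07, and the fall of 0.80 passed over the probes (limma adjusted p = 0.018). The mean of the Cp probes changed by -0.06 (limma adjusted p = 0.809), so the direction of Cp against T3 depends on the probe. That call was also lost in 6 other alternatives, 4 of them without siRNA replicate 1 or 3 or T3 replicate 1 or 3, and the call against euthyroid was lost with median scaling (limma adjusted p = 0.0845).

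Lrg1 and Itih3 were lower with T3 than in euthyroid liver and higher with the siRNA than with T3. Both comparisons share the T3 arrays, so a shift in these 3 arrays alone moves them in opposite directions. Lrg1, a leucine-rich plasma glycoprotein, had log2 signals of 14.50, 14.39 and 14.56 with T3 plus FoxO1 siRNA, 13.68, 13.27 and 13.73 with T3, and 13.92, 14.14 and 14.21 in euthyroid liver. It was 1.9-fold higher with siRNA than with T3 (0.92 ± 0.14 SE, limma adjusted p = 0.00325) and 1.45-fold lower with T3 than in euthyroid liver (-0.53 ± 0.14 SE, limma adjusted p = 0.0315). The fall with T3 was lost in 4 of 20 alternatives, namely with no filter and without T3 replicate 2 or euthyroid replicate 2 or 3 (limma adjusted p up to 0.0968). With siRNA against euthyroid it was 0.39 (limma adjusted p = 0.07), although those groups did not overlap. Itih3, a heavy chain of the inter-alpha-trypsin inhibitors that coat hyaluronan, read 14.92, 15.01 and 14.88 with T3 plus FoxO1 siRNA, 14.52, 14.31 and 14.60 with T3, and 15.12, 15.19 and 15.24 in euthyroid liver. Its changes were 0.46 ± 0.10 (SE) with siRNA against T3 (limma adjusted p = 0.0169) and -0.71 ± 0.10 (SE) with T3 against euthyroid (limma adjusted p = 0.00385). A second Itih3 probe gave 0.58 and -0.75. The rise against T3 was lost with median scaling (limma adjusted p = 0.0828) and without siRNA replicate 2 (limma adjusted p = 0.0529). With siRNA against euthyroid, Itih3 was -0.25 (limma adjusted p = 0.108).

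**Figure D3:**
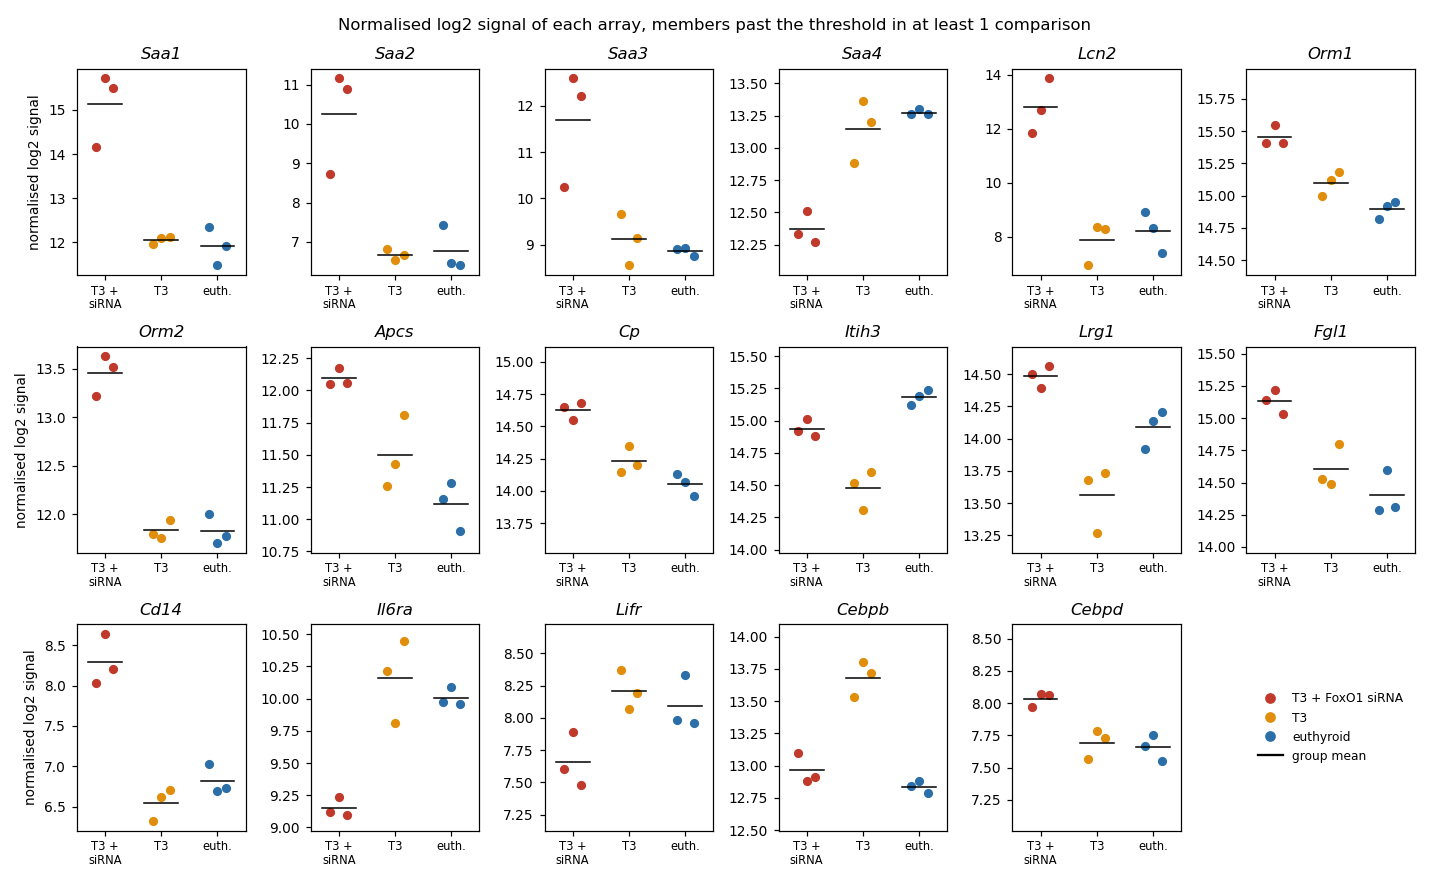
Normalized log2 signal (y axis) of each array for the members that passed in at least 1 comparison, with T3 plus FoxO1 siRNA at left, T3 in the middle and euthyroid at right; points are arrays and lines are group means, 3 arrays per group. The siRNA arrays of Saa2 spread from 8.72 to 11.17, while those of Orm2 lie between 13.22 and 13.63.

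The remaining 7 tested acute phase proteins did not pass in any comparison at the settings used throughout. Il1rn, the IL-1 receptor antagonist, came closest, at 0.84 ± 0.26 (SE) with siRNA against T3 (limma adjusted p = 0.0501) and -0.72 ± 0.26 (SE) with T3 against euthyroid (limma adjusted p = 0.0801). Its side of the threshold depended on the setting: it passed in 12 of 20 alternatives against T3, the authors' normalized values included, and in 3 of 20 for T3 against euthyroid. Against T3, the protease inhibitor Serpina3n was 0.29 (limma adjusted p = 0.151), the lipopolysaccharide-binding protein Lbp was 0.27 (limma adjusted p = 0.313) and C-reactive protein (Crp), a weak reactant in the mouse, was -0.13 (limma adjusted p = 0.319). Haptoglobin (Hp), hemopexin (Hpx) and Itih4 gave 0.16, 0.07 and -0.01. Hp binds free hemoglobin and Hpx binds heme.

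Haptoglobin's result depended on which of its 3 probes was read. The brightest, used for the gene, had unnormalized signals of 39656 to 50555 on arrays whose highest signals were 58149 to 61453. A dimmer probe had log2 signals of 14.85, 15.09 and 15.12 with T3 plus FoxO1 siRNA, 14.14, 14.15 and 14.19 with T3, and 13.70, 13.69 and 13.64 in euthyroid liver. These 3 groups were fully separate. The changes were 0.86 ± 0.11 (SE) against T3 (limma adjusted p = 0.00128), 1.35 against euthyroid (limma adjusted p = 0.000373) and 0.49 for T3 against euthyroid (limma adjusted p = 0.0146), adjusted over 15754 probes. The other dimmer Hp probe gave 0.87, 1.29 and 0.42, of which the last did not pass (limma adjusted p = 0.0805). Hpx behaved in a similar way against euthyroid, with -0.02 on its brightest probe and 0.51 on the other (limma adjusted p = 0.00707).

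Across members, the 6 whose probe averaged at least 15 log2 units (Orm1, Hp, Hpx, Itih4, Ahsg and Ambp) had changes of -0.01 to 0.36 with siRNA against T3, and 1 passed. Of the 28 with dimmer probes, 12 rose and 4 fell. Saa1 counted among the dimmer probes by its mean of 13.03, but read 15.72 and 15.49 on siRNA replicates 2 and 3. Its unnormalized signal reached 58713, above the 50555 of the brightest Hp probe. Whether the brightest probes, or Saa1 on those arrays, were saturated was not tested. Counted over probes, 16 of the 54 tested rose and 8 fell with siRNA against T3, where 16.1% of all named probes passed. Against euthyroid, 17 probes rose and 2 fell, with 24.6% passing over all named probes.

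**Figure D4:**
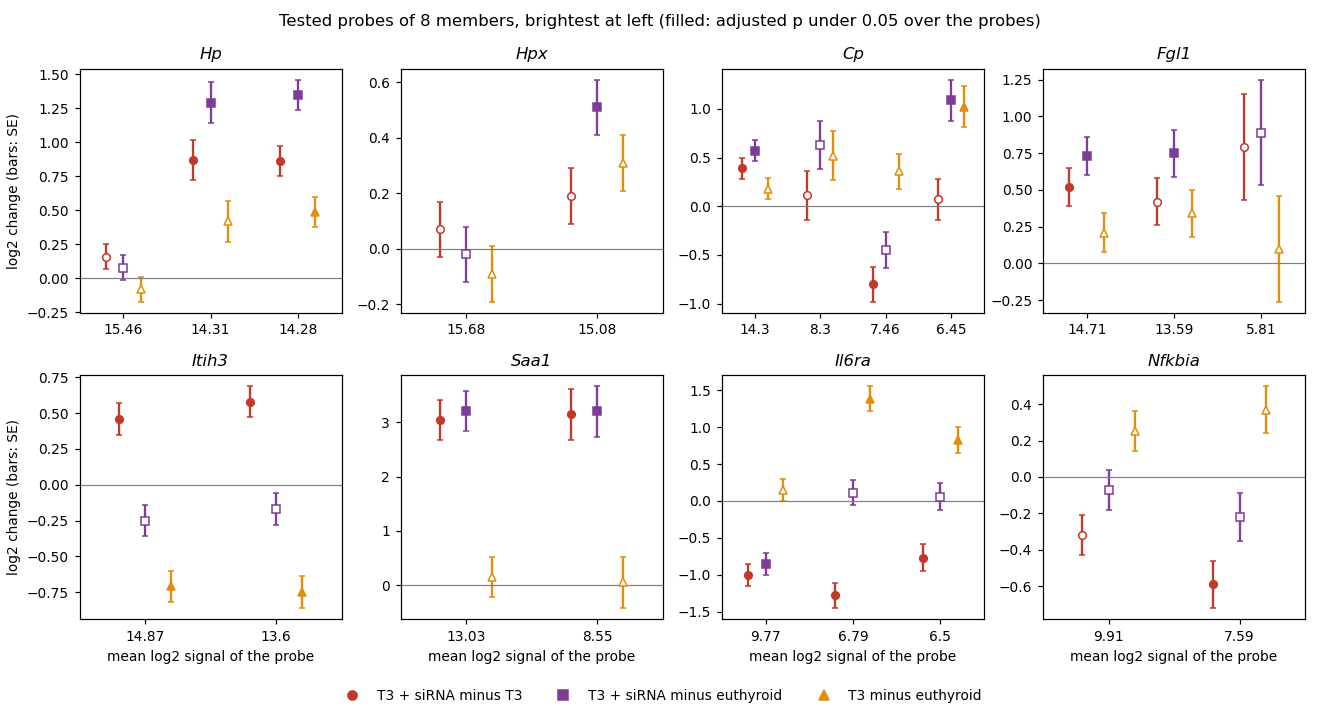
log2 change (y axis, bars are SE) of each tested probe of 8 members, ordered from the brightest at left, with the probe's mean log2 signal on the x axis; colours and shapes mark the 3 comparisons and filled points passed an adjusted p of 0.05 over the probes. The Hp probe at 15.46 lies near 0 in all comparisons and those at 14.31 and 14.28 lie above it.

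Other plasma proteins of the list showed no call at the settings used throughout. Ahsg, the negative acute phase protein fetuin A, changed by -0.01 with siRNA against T3, and Ambp, the precursor of bikunin and alpha-1 microglobulin, by 0.01. The heavy chains Itih1 and Itih2 gave 0.03 and 0.18. Itih1 was -0.39 with siRNA against euthyroid (limma adjusted p = 0.0523) and -0.42 with T3 against euthyroid (limma adjusted p = 0.0532). In each of these comparisons it passed in 8 of 20 alternatives, the authors' normalized values included (limma adjusted p = 0.0228 and 0.0227).

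Of the 6 tested receptors and membrane proteins, 1 rose and 2 fell with siRNA against T3. Cd14, the lipopolysaccharide co-receptor made by macrophages and also by hepatocytes, had log2 signals of 8.03, 8.64 and 8.21 with T3 plus FoxO1 siRNA, 6.32, 6.62 and 6.71 with T3, and 7.03, 6.69 and 6.73 in euthyroid liver. All siRNA arrays were above all others. The rise was 3.34-fold against T3 (1.74 ± 0.18 SE, limma adjusted p = 0.000606) and 2.78-fold against euthyroid (1.48 ± 0.18 SE, limma adjusted p = 0.00104).

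Il6ra, the ligand-binding subunit of the IL-6 receptor, had log2 signals of 9.12, 9.24 and 9.10 with T3 plus FoxO1 siRNA, 10.21, 9.81 and 10.45 with T3, and 9.97, 10.09 and 9.96 in euthyroid liver. It was 2-fold lower with siRNA than with T3 (-1.0 ± 0.15 SE, limma adjusted p = 0.003), with no overlap. Its other 2 probes fell as well, by 0.77 and 1.28 on the log2 scale (limma adjusted p = 0.0181 and 0.00167). Against euthyroid the probes differed. The brightest was -0.85 (limma adjusted p = 0.00462), and the others were 0.06 and 0.11, having been 0.83 and 1.39 higher with T3 than in euthyroid liver (limma adjusted p = 0.0131 and 0.00192). With the mean of its probes, the call against euthyroid was lost (limma adjusted p = 0.294). The cause of this difference between probes was not tested.

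Lifr, the leukemia inhibitory factor receptor that pairs with gp130, read 7.60, 7.89 and 7.48 with T3 plus FoxO1 siRNA, 8.37, 8.07 and 8.19 with T3, and 7.98, 8.33 and 7.96 in euthyroid liver. It was 1.47-fold lower against T3 (-0.55 ± 0.15 SE, limma adjusted p = 0.0327) and was -0.43 against euthyroid (limma adjusted p = 0.0613). Neither comparison showed overlapping arrays. The other 2 tested Lifr probes gave -0.43 and -0.70 against T3 and did not pass (limma adjusted p = 0.178 and 0.105). The call was lost in 8 of 20 alternatives, among them the mean of the probes (0.0721), median scaling (0.32) and the omission of siRNA or T3 replicate 1 or 3. Il6st, the gp130 subunit, gave 0.21 (limma adjusted p = 0.363) and the oncostatin M receptor Osmr 0.18 (limma adjusted p = 0.483) against T3. Il1r1, the signalling IL-1 receptor, was detected on 2 siRNA arrays, 1 T3 array and 0 euthyroid arrays, so its change of 0.10 against T3 rests on signals near background. Every other tested member was detected on all 9 arrays.

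Of the 5 signalling genes, Cebpb fell and Cebpd rose with siRNA against T3, and the Cebpd call was lost in most alternative settings. Cebpb, the gene of C/EBP beta, had log2 signals of 13.10, 12.88 and 12.91 with T3 plus FoxO1 siRNA, 13.53, 13.80 and 13.72 with T3, and 12.84, 12.88 and 12.79 in euthyroid liver. It was the 1 member higher with T3 than in euthyroid liver, by 1.8-fold (0.85 ± 0.11 SE, limma adjusted p = 0.00243). With siRNA it was 1.65-fold lower than with T3 (-0.72 ± 0.11 SE, limma adjusted p = 0.00287) and 0.12 from euthyroid (limma adjusted p = 0.429). The T3 arrays, which both calls share, lay above all 6 others. Cebpd read 7.97, 8.07 and 8.06 with T3 plus FoxO1 siRNA, 7.57, 7.78 and 7.73 with T3, and 7.67, 7.75 and 7.55 in euthyroid liver. Its rises were 1.26-fold against T3 (0.34 ± 0.10 SE, limma adjusted p = 0.045) and 1.3-fold against euthyroid (0.38 ± 0.10 SE, limma adjusted p = 0.0242). The call against T3 was lost in 14 of 20 alternative settings (limma adjusted p up to 0.124), among them the authors' normalized values (0.0537) and the omission of any 1 array, and it did not pass when adjusted over the probes (0.0592). Against euthyroid it was lost in 5, including the omission of siRNA replicate 2 or 3 or euthyroid replicate 1 or 3.

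The IL-6 pathway's own transcription factor and inhibitor did not pass in any comparison. Stat3 gave -0.13 ± 0.14 (SE) with siRNA against T3 (limma adjusted p = 0.533). Socs3 had log2 signals of 8.54, 7.94 and 8.03 with T3 plus FoxO1 siRNA, 8.82, 7.90 and 8.31 with T3, and 7.96, 9.05 and 8.92 in euthyroid liver, with all groups overlapping. Its change against T3 was -0.18 ± 0.32 (SE) (limma adjusted p = 0.741). Nfkbia, the NF-kB inhibitor I-kappa-B alpha, was -0.32 ± 0.11 (SE) (limma adjusted p = 0.0685), and its dimmer probe was -0.59 (limma adjusted p = 0.0157 over the probes). RNA levels do not measure the phosphorylation of STAT3 or the activity of NF-kB.

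Set against euthyroid liver, T3 plus FoxO1 siRNA gave 11 members higher and 2 lower, 38.2% of the 34, where 26.7% of all genes passed, 13.4% higher and 13.3% lower. The median change of the members was 0.12, and that of all genes -0.02. All 11 were also higher against T3, but both comparisons use the same siRNA arrays. Saa1, Saa2, Saa3, Lcn2, Orm2 and Cd14 rose at least 2-fold, which 3.41% of all genes did. T3 against euthyroid gave 1 member higher (Cebpb) and 2 lower (Itih3 and Lrg1), 8.82% of the 34, where 18.4% of all genes passed, 7.8% higher and 10.6% lower. The members' median there was -0.03, and that of all genes -0.05. Thus 17 of the 34 members passed in at least 1 comparison and the other 17 in none.

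Within the siRNA group the arrays differed. For the 13 members that rose against T3, replicate 2 was the highest of the 3 for 10 and replicate 3 for 3, and replicate 1 was the lowest for 9. The SD of the siRNA arrays was 1.34 log2 units for Saa2, 1.26 for Saa3, 1.01 for Lcn2 and 0.85 for Saa1, against 0.15, 0.56, 0.81 and 0.09 with T3. The siRNA arrays all lay above the T3 arrays for 17 of the 34 members and all below for 6, where 38.4% of all genes did not overlap, 20.8% on the high side and 17.5% on the low side. Against euthyroid, 13 members lay wholly above and 6 wholly below, where 46.1% of all genes did not overlap, 22.1% above and 24% below. With T3 against euthyroid, 5 members lay wholly above and 4 wholly below, where 40.7% of all genes did not overlap, 16.5% above and 24.1% below.

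A list of 92 other genes of these pathways (further plasma proteins, cytokines, receptors and kinases) had 69 tested. With siRNA against T3, 4 rose (Il1b, Nfkbie, Socs2 and Tff3) and 8 fell, 17.4% of the list, with a median of 0.00. The 8 were Fgb, Hamp2, Alb, Il1rap, Stat5a, Pim3, Hnf4a and Creb3l3, of which Fgb, Hamp2 and Alb were also lower against euthyroid. Stat5a (-0.58, limma adjusted p = 0.0337) lost its call in 8 of 20 alternatives. The plasma protein genes Fga, Fgg, C4b and Cfb, and Mt1 and Mt2, were tested and passed in no comparison. Hamp2, a hepcidin paralogue, fell most clearly, with log2 signals of 10.98, 11.37 and 11.34 with T3 plus FoxO1 siRNA, 13.09, 13.94 and 13.49 with T3, and 14.06, 13.32 and 13.55 in euthyroid liver. Its change against T3 was -2.27 ± 0.24 (SE) (limma adjusted p = 0.000705) and against euthyroid -2.41 (limma adjusted p = 0.000614). The hepcidin gene Hamp itself was tested and passed in no comparison. Albumin (Alb), a negative acute phase protein, was -1.08 ± 0.25 (SE) on its 1 probe against T3 (limma adjusted p = 0.017), and the kinase Pim3 was -1.20 ± 0.18 (SE) (limma adjusted p = 0.00295). The Alb probe read 8.35 to 10.24 log2 units, far dimmer than those of Apoa1 and Ttr on the same list (15.16 to 15.55). Apoa1 and Ttr changed by 0.00 and -0.06 against T3 (limma adjusted p = 0.981 and 0.663). How well these probes follow their transcripts was not tested. Il1rap, the IL-1 receptor accessory protein, was -0.54 ± 0.12 (SE) (limma adjusted p = 0.0128). Nfkbie, an NF-kB inhibitor, rose by 0.74 ± 0.18 (SE) (limma adjusted p = 0.0199), and Tff3, a secreted trefoil peptide, rose by 2.06 ± 0.53 (SE) (limma adjusted p = 0.0274). Of these calls against T3, Il1rap lost its own in 1 alternative, Alb in 2, Nfkbie in 3 and Tff3 in 4, which included the omission of siRNA replicate 3 for Alb, of siRNA replicate 1 or 2 or T3 replicate 3 for Nfkbie, and of siRNA replicate 1 or 2 or T3 replicate 2 for Tff3. The probes of Il6, Tnf, Lif, Osm and Socs1 did not pass the detection filter.

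The same list gave 9 higher and 6 lower genes with siRNA against euthyroid (21.7%, median 0.03). Besides Hamp2, these included the NF-kB kinase subunit Ikbkb (0.42 ± 0.09 SE, limma adjusted p = 0.0101) and Alb (-1.09, limma adjusted p = 0.0126). T3 against euthyroid gave 7 higher and 4 lower (Serpinf2, Ctf1, Tyk2 and Steap3), 15.9% of the list with a median of 0.07. Stat5a, a transcription factor of growth hormone and cytokine signalling, rose by 1.08 ± 0.16 (SE) (limma adjusted p = 0.00369) and Pim3 by 1.03 ± 0.18 (SE) (limma adjusted p = 0.00689). Ctf1, the IL-6 family cytokine cardiotrophin 1, was -0.64 ± 0.12 (SE) (limma adjusted p = 0.00824). Each of these 3 shares was below that of all genes in the same comparison.

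Some markers of macrophages, stellate cells and cholangiocytes were higher with T3 plus FoxO1 siRNA than with T3. Those of the other cell types listed were not. Of 8 tested macrophage and monocyte markers, 5 were higher with siRNA than with T3 (Adgre1, Vsig4, Lyz2, Gpnmb and Trem2). The markers' summed signal was 11134 to 14810 with T3 plus FoxO1 siRNA, 7172 to 8023 with T3 and 6308 to 6368 in euthyroid liver. Of 10 stellate and fibroblast markers, 7 were higher and 1 lower against T3, with sums of 13337 to 15602 with T3 plus FoxO1 siRNA, 11001 to 12044 with T3 and 12124 to 14087 in euthyroid liver. Dcn, the marker that fell, gave 5600 to 8360 of that sum with T3 plus FoxO1 siRNA and 9690 to 10800 with T3, and single markers rose much more. Against T3, Acta2 was 21.4-fold higher (limma adjusted p = 0.000142), Col1a1 16.8-fold (limma adjusted p = 1.81e-05) and Col1a2 5.6-fold (limma adjusted p = 0.00143). Against euthyroid liver they were 5.1-fold, 3.03-fold and 2.52-fold higher (limma adjusted p = 0.00169, 0.00115 and 0.0156). With T3 they were 4.19-fold, 5.53-fold and 2.22-fold lower than in euthyroid liver (limma adjusted p = 0.00481, 0.000613 and 0.0358). Col1a1 was detected on 1 T3 array. Timp1 and the macrophage marker Gpnmb were not detected on any T3 array and were at least 4.05-fold and at least 25.5-fold higher, set against the higher of each T3 array's lowest detected signal and the probe's own signal. Against euthyroid liver, Gpnmb was 14.4-fold higher (limma adjusted p = 0.00101). Timp1, detected on 1 euthyroid array, was 4.47-fold higher (limma adjusted p = 0.00245). None of 4 tested neutrophil markers passed, with sums of 631 to 1367 with T3 plus FoxO1 siRNA, 651 to 744 with T3 and 555 to 740 in euthyroid liver. The neutrophil markers Ngp and Cxcr2 were not detected on any array. Of 9 hepatocyte markers, 0 were higher and 2 lower against T3 (Hnf4a, and Alb on the dimmer probe described above). Their sums were 228993 to 243315 with T3 plus FoxO1 siRNA, 240480 to 251219 with T3 and 226677 to 236223 in euthyroid liver. Hnf4a was -0.37 against T3 (limma adjusted p = 0.0498) and 0.49 with T3 against euthyroid (limma adjusted p = 0.0196), and both calls share the T3 arrays. With siRNA against euthyroid, Hnf4a was 0.12 (limma adjusted p = 0.483). With siRNA against T3, none of 7 endothelial, 3 lymphocyte and 2 erythroid markers passed, and both tested cholangiocyte markers (Krt7 and Sox9) were higher. Krt7 was near background, detected on 0 T3 arrays and 1 euthyroid array. Neither Krt7 nor Sox9 passed against euthyroid (limma adjusted p = 0.273 and 0.0958). The cholangiocyte markers Krt19 and Epcam did not pass the detection filter. Cells other than hepatocytes are known to make Lcn2, Saa3, Cd14 and Il1rn. The part of these cells in the members' changes was not tested.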

How the data were processed

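Liver RNA of 9 samples was measured on Illumina bead arrays, and groups and replicate numbers came from the sample titles. Per the file headers, the authors deposited unnormalized signal intensities, each with a detection p-value. The steps between these p-values imply 936 negative controls. A second table deposited by the authors holds intensities on a linear scale whose sorted values differ from quantile-normalized signals by at most 0.0693%. The submitters' processing notes name Partek 6.6, without its role.

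Processing used R 4.3.3, limma 3.58.1 and statmod 1.5.0. Background correction from the inferred negative controls (neqc, offset 16) was followed by quantile normalization and log2 transformation. A probe was kept if its detection p-value was below 0.05 on 3 or more of the 9 arrays (18581 of 45281), those with several symbols (18 of all probes) or none (10378) were left out, and the brightest probe stood for each of 10408 genes. All 9 arrays entered one lmFit and eBayes model with a mean for each group. Two-sided p-values were adjusted by the Benjamini-Hochberg method over the tested genes, or over the 15754 named probes where a probe is reported. The model fit and the adjustment were tested on simulated gene values. The background correction, normalization, filter and choice of probe were not part of that test.

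Every member was eligible to be named. Of the related list, the 6 genes with the lowest adjusted p for siRNA against T3 and the 3 lowest of each other comparison were named. Genes listed beside a small count with no value of their own were picked once the values were known. The same holds for the related genes named as passing in no comparison. The members, the related list, the marker lists and the motifs were chosen with earlier results of these data known. Alternatives were the background correction, scaling, filter, probe rule, array weights, eBayes settings, a replicate block and leaving out each array. Promoters and gene positions came from RefSeq (GRCm38.p6), and gene names from the platform annotation. Array number limits the precision: with 3 arrays per group an exact permutation test of a single gene cannot go below 0.1. Same-numbered arrays of different groups did not deviate together (correlations of -0.06 to 0.03), so the numbers were not taken to pair samples.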

Additional observations from a re-analysis of the deposited data

How the results depend on the processing

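With T3 plus FoxO1 siRNA against T3, 10 of the 17 member calls passed in all 20 alternatives: Saa1, Saa2, Saa3, Saa4, Lcn2, Orm2, Lrg1, Cd14, Il6ra and Cebpb. Calls were lost in 14 settings for Cebpd, 10 for Orm1, 8 for Lifr, 7 for Apcs, 6 for Fgl1, 6 for Cp and 2 for Itih3, and Cp turned direction when its probes were averaged (-0.06). Leaving out 1 array at a time gave 8 to 12 higher members, 3 to 4 lower members and 1171 to 1761 genes in all, against 13, 4 and 2025. The fewest genes came without siRNA replicate 3. The cause was not tested, and each such fit has fewer arrays.

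Against euthyroid, the siRNA group gave 2 lower members, but 4 with no background correction, 4 with the authors' normalized values, 4 with detection on all 9 arrays, 1 with the mean of probes and 5 with trended robust eBayes. Leaving out 1 array gave 2 to 3 lower members, 10 to 12 higher members and 1693 to 2929 genes, against 2, 11 and 2779. In that comparison 10 of 13 member calls passed throughout, and Cp lost its own in 1 setting, Il6ra in 1 and Cebpd in 5. Lrg1 lost its call for T3 against euthyroid in 4. For T3 against euthyroid, higher members numbered 3 with the mean of probes and 2 with trended robust eBayes, against 1. Lower members numbered 1 with no filter and 4 with array weights, against 2. Leaving out 1 array gave 1 higher member, 1 to 3 lower members and 894 to 2004 genes, against 1917. The fewest genes in both comparisons came without euthyroid replicate 1, and the single lower member of the last came without euthyroid replicate 2 or 3.

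Median scaling in place of quantiles moved the median gene by 0.19 with siRNA against T3 and by 0.14 with siRNA against euthyroid. It gave 1738 genes with siRNA against T3, 1778 with siRNA against euthyroid and 916 with T3 against euthyroid. The share of calls that were higher was then 88.7% in place of 60.3% with siRNA against T3, and 73.6% in place of 50.3% against euthyroid. It left 9 higher members against T3, 8 of them among the 13. The brightest probe under a limit of 15 log2 units, an alternative chosen after seeing the data, gave 15, adding Hp and Il1rn. Counted over all 20 alternatives, Il1rn passed in 12, Nfkbia in 5 and Hp in 2.

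With the replicate block, 10 members were higher and 4 lower with siRNA against T3, 11 and 2 against euthyroid, and 1 and 3 with T3 against euthyroid. Of the 10, 9 were among the 13. It moved no count of members or genes by over 1.5 times.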
